A study of Mus musculus with 8 samples.

Results

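The 10 genes described here encode ligands and receptors of the vascular endothelial growth factor (VEGF) and angiopoietin pathways. They are *Vegfa*, *Kdr*, *Flt1*, *Flt4*, *Nrp1*, *Nrp2*, *Tek*, *Tie1*, *Angpt1* and *Angpt2*, and were chosen by name from the 54532 genes of a table of read counts from mouse retina. The 10 genes and the other gene lists below were chosen with earlier results of these data known. Their counts beside the shares of all genes are therefore a description. Each name was found on 1 row, and all 10 passed the filter on low counts that 17998 genes passed. RNA-seq compared whole retinas of *Mettl3*-CKO pups, which carried *Six3-Cre* and were homozygous for the floxed *Mettl3* allele, with those of control pups (4 samples each). The labels give the age as postnatal day 7 for all samples, and the study's methods give the day before. The genotype of the controls is stated only as control, and the RNA-seq methods do not state the litters. *Six3-Cre* acts in retinal progenitor cells, from which neurons and Müller glia descend, while blood vessels, astrocytes and microglia enter the retina from outside that lineage. The study reports efficient loss of METTL3 for the central retina, and these samples are whole retinas. Neither labels nor methods state whether a sample pooled several retinas or pups, and the p-values below measure the spread between these samples. In bulk RNA from whole retina, fewer cells of a type and less RNA per cell cannot be told apart.

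In the developing retina, the superficial vessels grow outwards from the optic nerve over a template of astrocytes. VEGF-A, made by astrocytes and later by neurons and Müller glia, acts on endothelial cells through VEGFR2, the product of *Kdr*. VEGFR1, the product of *Flt1*, binds the same ligand with high affinity but signals weakly and acts largely as a trap, and VEGFR3, the product of *Flt4*, is the receptor for VEGF-C. The neuropilins *Nrp1* and *Nrp2* are co-receptors that bind both VEGFs and class 3 semaphorins and are present on neurons as well as vessels, and *Kdr* is also known from neurons of the retina. Angiopoietin 1 activates the endothelial receptor TIE2, the product of *Tek*, whereas angiopoietin 2 is a context-dependent antagonist of it, and *Tie1* encodes a related endothelial receptor that modulates TIE2.

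*Flt1*, *Tie1* and *Tek* were called lower in *Mettl3*-CKO retinas, while *Kdr*, also a receptor best known from endothelium, was not called in either direction. The receptor gene *Flt4*, at low levels, was not called either. The windows around the start of *Flt1*, *Tie1*, *Tek* and *Kdr* are printed, from 250 bases before to 50 bases after the start, as RefSeq gives them on GRCm38.p6. Capitals mark AGGAAG or CCGGAA on either strand (CTTCCT or TTCCGG in the printed strand), cores of motifs bound by ETS factors, which are widespread regulators of endothelial genes. The windows are chr5:147725962-147726261 (minus strand) for *Flt1*, chr4:118489800-118490099 (minus strand) for *Tie1*, chr4:94739039-94739338 (plus strand) for *Tek* and chr5:75978406-75978705 (minus strand) for *Kdr*.
Flt1: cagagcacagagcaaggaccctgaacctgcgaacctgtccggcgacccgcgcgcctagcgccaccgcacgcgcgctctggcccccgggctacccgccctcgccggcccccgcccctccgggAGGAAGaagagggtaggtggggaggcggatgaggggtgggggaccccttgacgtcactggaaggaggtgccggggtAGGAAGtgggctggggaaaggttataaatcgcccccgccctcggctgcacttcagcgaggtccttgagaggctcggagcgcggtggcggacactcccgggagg
Tie1: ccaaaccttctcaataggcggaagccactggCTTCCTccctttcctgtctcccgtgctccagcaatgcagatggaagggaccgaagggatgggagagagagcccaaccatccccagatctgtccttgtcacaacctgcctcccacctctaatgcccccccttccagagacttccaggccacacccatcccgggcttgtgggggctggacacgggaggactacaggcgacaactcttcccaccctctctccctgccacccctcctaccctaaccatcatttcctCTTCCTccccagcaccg
Tek: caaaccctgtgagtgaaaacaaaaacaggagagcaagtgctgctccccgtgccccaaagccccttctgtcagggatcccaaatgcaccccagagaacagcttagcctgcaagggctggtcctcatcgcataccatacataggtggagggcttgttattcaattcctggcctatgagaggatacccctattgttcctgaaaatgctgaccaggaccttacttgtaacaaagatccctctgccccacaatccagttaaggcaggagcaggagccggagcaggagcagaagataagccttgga
Kdr: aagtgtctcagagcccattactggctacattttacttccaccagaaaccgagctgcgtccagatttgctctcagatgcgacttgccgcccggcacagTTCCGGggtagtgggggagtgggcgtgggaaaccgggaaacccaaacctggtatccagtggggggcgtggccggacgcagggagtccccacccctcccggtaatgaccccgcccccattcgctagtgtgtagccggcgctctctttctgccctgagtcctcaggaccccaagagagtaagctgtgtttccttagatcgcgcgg
AGGAAG was found 2 times in the *Flt1* window and 2 times in the *Tie1* window, CCGGAA 1 time in the *Kdr* window, and neither in that of *Tek*. Over all 32851 such windows of the genome, 35.4% held AGGAAG and 14.9% held CCGGAA on either strand. The hypoxia response cores ACGTG (19.6% of all windows) and GCGTG (32.4%), the GC box core GGGCGG (35.7%) and TATAAA (13.6%) were also searched on both strands. Of these, the *Flt1* window held GCGTG 1 time, GGGCGG 3 times and TATAAA 1 time, the *Kdr* window held GCGTG 2 times and GGGCGG 2 times, and the windows of *Tie1* and *Tek* held none. These matches describe letters in a window and not binding. Of the 10 genes, 8 had a window.

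Total counts per sample ran from 16227095 to 19310791 in controls and from 17290701 to 20281517 in *Mettl3*-CKO retinas. A level of 3 counts, taken as the limit of detection, equals 0.148 to 0.185 in units of CPM, a count divided by the scaled library total, and covers counting error only. Levels below are CPM after scaling of the library sizes with edgeR's TMM method, and samples are given in the order of replicates 1 to 4. The retinal genes *Crx*, *Rlbp1* and *Pax6* were present in every sample, at 71.35 CPM (*Rlbp1*) or more. *Crx*, found in photoreceptors, was at 1071 to 1275 CPM in controls and 724.7 to 984.0 CPM in *Mettl3*-CKO retinas. *Rlbp1*, found in Müller glia, was at 190.8 to 340.8 CPM and 71.35 to 121.3 CPM, so neither gene overlapped between groups. *Pax6* did overlap, at 563.1 to 707.5 CPM and 667.8 to 834.1 CPM. Whether these cells differed between groups was not tested. Control replicates 1 and 4 stood apart from the other samples. Control replicate 1 had the highest summed level of 20 endothelial markers (141.9 CPM, against 52.97 to 63.62 CPM in the other controls and 30.2 to 40.22 CPM in *Mettl3*-CKO retinas). Control replicate 4 held 5286 CPM of 18 lens genes, against 8.01 to 99.03 CPM in the other controls and 9.49 to 29.3 CPM in *Mettl3*-CKO retinas. *Mettl3*, the targeted gene, was at 33.7, 32.4, 29.3 and 29.2 CPM in controls and at 21.1, 29.6, 21.3 and 24.2 CPM in *Mettl3*-CKO retinas. Its log2 fold change was -0.38 (SE 0.12, adjusted p = 0.0602 by the quasi-likelihood test of edgeR, with the method of Benjamini and Hochberg). These counts are of the whole gene, which shares 933 exon bases with *Tox4* on the opposite strand.

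At an adjusted p under 0.05 (edgeR's quasi-likelihood test, adjusted over all 17998 genes), 5 of the 10 genes were lower and 0 were higher in *Mettl3*-CKO retinas. Those that fell were *Flt1*, *Nrp2*, *Tie1*, *Tek* and *Vegfa*. Among all genes tested, 4.05% were called lower and 6.49% higher, and these shares also stand beside the edgeR counts of the other gene lists below. Without adjustment, 7 of the 10 had a p-value under 0.05 in the downward direction and 0 in the upward one, against 11.1% and 13.5% of all genes tested. DESeq2 called 6 of the 10 lower and 0 higher, against 5.79% and 8.38% of the genes it tested, and limma voom called 4 lower and 0 higher, against 8.71% and 11.9%. The median log2 fold change of the 10 genes was -0.38, against -0.012 over all genes tested, of which 51.8% were below 0. Without control replicate 1, 4 of the 10 were called lower and 0 higher, against 7.07% and 10.3% of the 18235 genes then tested, and the median was -0.35. The count was 3 without control replicate 2, control replicate 4, *Mettl3*-CKO replicate 1 or *Mettl3*-CKO replicate 2, and 2 without *Mettl3*-CKO replicate 3. In these fits, in the same order, 350, 464, 185, 409 and 334 of all genes were called lower, against 729 with all samples. All *Mettl3*-CKO samples lay below all controls for *Flt1*, *Nrp2*, *Tie1* and *Angpt2*, which is 4 of 10 genes against 7.59% of all genes tested. For none of the 10 did all *Mettl3*-CKO samples lie above all controls, as they did for 9.76% of all genes tested.

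**Figure D1:**
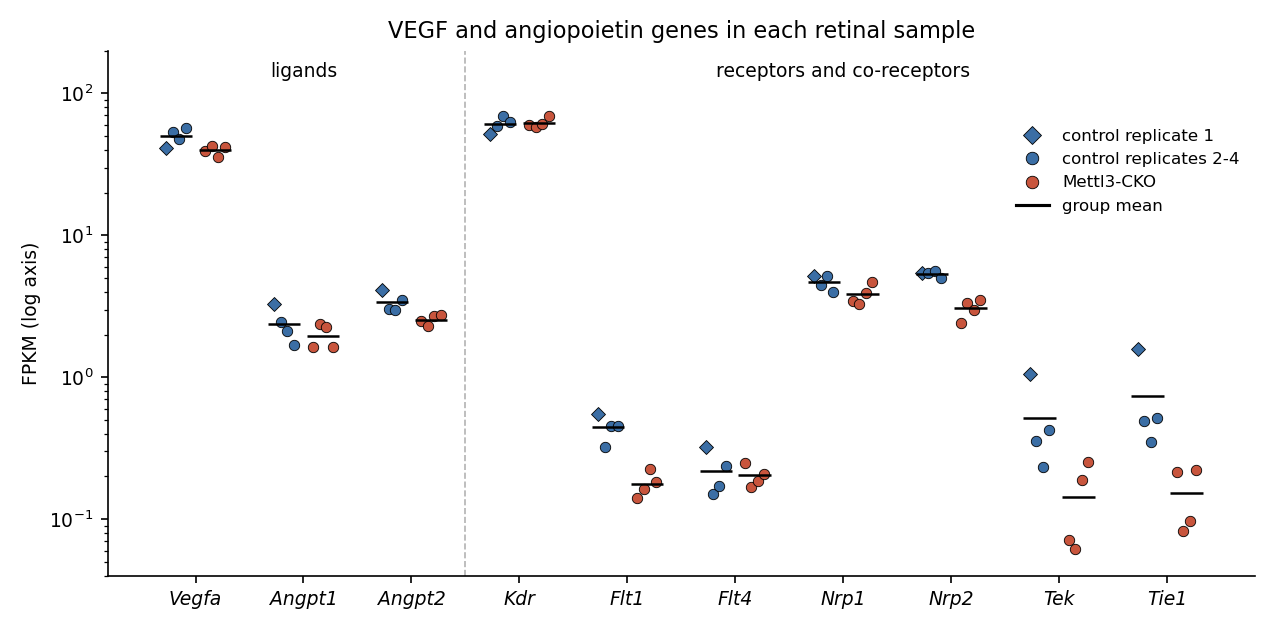
Level of each gene in each sample, in FPKM (counts scaled for gene length and library total) on a log axis, with ligands left and receptors and co-receptors right of the dashed line. Blue marks are the 4 controls (diamond, control replicate 1), red marks the 4 *Mettl3*-CKO samples and lines the group means, and *Kdr* and *Vegfa* lie above the other 8 genes in every sample.

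Per length of gene, *Kdr* and *Vegfa* stood far above the rest. Levels in FPKM, which divide the counts by gene length and library total and so allow genes to be compared, averaged 60.6 ± 7.25 (SD, n = 4) for *Kdr* and 50.1 ± 6.99 (SD, n = 4) for *Vegfa* in controls, and the ranges of these genes overlapped. *Kdr* was above 96.4% and *Vegfa* above 95.2% of the genes tested by mean control FPKM. There followed *Nrp2* (5.38 FPKM), *Nrp1* (4.71 FPKM), *Angpt2* (3.41 FPKM) and *Angpt1* (2.38 FPKM), each overlapping its neighbour in the order. The lowest were *Tie1* (0.737 FPKM), *Tek* (0.517 FPKM), *Flt1* (0.446 FPKM) and *Flt4* (0.220 FPKM), of which *Flt1* and *Flt4* did not overlap. In *Mettl3*-CKO retinas *Kdr* (61.9 FPKM) no longer overlapped *Vegfa* (39.9 FPKM). The order went on with *Nrp1* (3.84 FPKM), *Nrp2* (3.06 FPKM), *Angpt2* (2.55 FPKM) and *Angpt1* (1.97 FPKM), and ended with *Flt4* (0.204 FPKM), *Flt1* (0.178 FPKM), *Tie1* (0.154 FPKM) and *Tek* (0.143 FPKM), with overlap between neighbours inside each of these groups of 4. The mean FPKM of *Kdr* was 135.8 times that of *Flt1*, 117.2 times that of *Tek* and 82.1 times that of *Tie1* in controls. In *Mettl3*-CKO retinas it was 347.8, 431.7 and 402.9 times theirs. The control values were 154.2, 188.4 and 140.3 times without control replicate 1, and *Tek* (0.337 FPKM) came after *Tie1* (0.453 FPKM) and *Flt1* (0.412 FPKM) in the order.

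*Vegfa*, the main ligand of the VEGF pathway, is a minus strand gene of chromosome 17 (GRCm38, 46016993 to 46032369). It was at 183, 227, 205 and 244 CPM in controls and at 166, 183, 153 and 179 CPM in *Mettl3*-CKO retinas. The *Mettl3*-CKO samples filled the low end of the range, and control replicate 1 lay within them. The means were 215 ± 26.6 CPM and 170.4 ± 13.4 CPM (SD, n = 4 each), a fold change of 0.793. The log2 fold change was -0.33 (SE 0.099, 95% interval -0.55 to -0.12), with an adjusted p of 0.0497 in edgeR's quasi-likelihood test. Without control replicate 1 the groups did not overlap and the log2 fold change was -0.40 (adjusted p = 0.00386 in edgeR). The call sat at the threshold, since the adjusted p was between 0.0743 and 0.161 when any of the other 7 samples was left out and was 0.0664 with library totals in place of TMM and 0.05495 with library sizes that left out lens, erythrocyte and mitochondrial genes.

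*Kdr*, encoding VEGFR2, lies on chromosome 5 from 75932827 to 75978458, on the minus strand. It was at 480.2, 528, 622 and 562 CPM in controls and at 533, 523, 556 and 615 CPM in *Mettl3*-CKO retinas. The samples of both groups were interleaved. The log2 fold change of 0.02 (SE 0.097, 95% interval -0.19 to 0.23, adjusted p = 0.921 in edgeR) was close to 0, and without control replicate 1 it was -0.035 (adjusted p = 0.815).

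*Flt1*, encoding the decoy-like VEGFR1, lies on chromosome 5 from 147561604 to 147726011, on the minus strand. It was at 7.63, 4.34, 6.18 and 6.09 CPM in controls (143, 71, 118 and 101 counts) and at 1.88, 2.20, 3.07 and 2.44 CPM in *Mettl3*-CKO retinas (34, 38, 58 and 50 counts). Every *Mettl3*-CKO sample lay below every control. The mean fell from 6.06 ± 1.35 to 2.40 ± 0.507 CPM (SD, n = 4 each), a log2 fold change of -1.34 (SE 0.22, adjusted p = 0.00282 in edgeR). Without control replicate 1 it was -1.20 (adjusted p = 0.00144), and it was called lower whichever of the 8 samples was left out.

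*Flt4*, encoding the VEGF-C receptor VEGFR3, lies on chromosome 11 from 49609263 to 49652739, on the plus strand. Its levels were low, at 2.72, 1.22, 1.41 and 1.93 CPM in controls and 2.04, 1.39, 1.54 and 1.71 CPM in *Mettl3*-CKO retinas. The groups overlapped throughout, with a log2 fold change of -0.13 (SE 0.29, 95% interval -0.75 to 0.49, adjusted p = 0.838 in edgeR). Its sign turned without control replicate 1, to 0.14 (adjusted p = 0.767).

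The neuropilins gave 1 call. *Nrp2*, a co-receptor for VEGFs and class 3 semaphorins, lies on chromosome 1 from 62703285 to 62818695, on the plus strand. It was at 66.5, 64.0, 66.3 and 58.9 CPM in controls and at 28.2, 39.5, 35.7 and 40.9 CPM in *Mettl3*-CKO retinas, with no overlap between groups. The mean fell from 63.9 ± 3.56 to 36.1 ± 5.69 CPM (SD, n = 4 each), a log2 fold change of -0.82 (SE 0.11, adjusted p = 0.00104 in edgeR), and it too was called whichever of the 8 samples was left out. *Nrp1*, its paralog and the co-receptor of VEGFR2, lies on chromosome 8 from 128358604 to 128503363, on the plus strand. It was at 52.6, 43.6, 50.4 and 38.7 CPM in controls and at 33.4, 32.1, 38.8 and 45.5 CPM in *Mettl3*-CKO retinas. *Mettl3*-CKO replicates 3 and 4 lay within the control range. The log2 fold change of *Nrp1* was -0.31 (SE 0.13, 95% interval -0.58 to -0.03, adjusted p = 0.159 in edgeR). The log2 ratio of *Nrp2* to *Nrp1* CPM in a sample lay between 0.34 and 0.60 in controls and between -0.25 and 0.30 in *Mettl3*-CKO retinas, a difference of -0.53 with no overlap. This pair was compared after the fold changes of its members were known, and the difference is given without a test.

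*Tek* and *Tie1*, the receptors of the angiopoietin pathway, were the members with the largest fitted changes and the widest spread. *Tie1* lies on chromosome 4 from 118471191 to 118490061, on the minus strand. It was at 8.06, 2.38, 1.73 and 2.53 CPM in controls (151, 39, 33 and 42 counts) and at 1.05, 0.405, 0.477 and 1.07 CPM in *Mettl3*-CKO retinas (19, 7, 9 and 22 counts). Control replicate 1 was far above the rest, and every *Mettl3*-CKO sample lay below every control. The log2 fold change was -2.28 (SE 0.51, adjusted p = 0.0148 in edgeR), and -1.53 (adjusted p = 0.00698) without control replicate 1. Without *Mettl3*-CKO replicate 3 the adjusted p was 0.0512.

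*Tek*, encoding TIE2, lies on chromosome 4 from 94739289 to 94874976, on the plus strand. It was at 5.13, 1.65, 1.10 and 1.99 CPM in controls (96, 27, 21 and 33 counts) and at 0.331, 0.289, 0.901 and 1.17 CPM in *Mettl3*-CKO retinas (6, 5, 17 and 24 counts). *Mettl3*-CKO replicate 4 lay above control replicate 3, and replicates 1 and 2 were near the limit of detection. The log2 fold change was -1.84 (SE 0.53, adjusted p = 0.0432 in edgeR), and -1.18 (adjusted p = 0.0628) without control replicate 1. Leaving out control replicate 2 or 4 or *Mettl3*-CKO replicate 1, 2 or 3 also ended the call, with an adjusted p of 0.0629, 0.0641, 0.156, 0.114 and 0.0801. The summed level of the endothelial markers, like *Tek* and *Tie1*, was highest in control replicate 1, and its part in these results was not tested.

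The angiopoietins were at similar levels, and neither was called. *Angpt2*, encoding the context-dependent antagonist of TIE2, lies on chromosome 8 from 18690263 to 18741562, on the minus strand. It was at 15.8, 11.1, 11.0 and 12.7 CPM in controls and at 9.10, 8.45, 9.97 and 9.99 CPM in *Mettl3*-CKO retinas. Every *Mettl3*-CKO sample lay below every control, with a log2 fold change of -0.43 (SE 0.14, 95% interval -0.74 to -0.12) and an adjusted p of 0.0715 in edgeR, and of 0.0459 in DESeq2. *Angpt1*, the activating ligand of TIE2, lies on chromosome 15 from 42424723 to 42676977, on the minus strand. It was at 17.7, 12.6, 11.0 and 8.74 CPM in controls and at 8.44, 12.3, 11.8 and 8.39 CPM in *Mettl3*-CKO retinas. All *Mettl3*-CKO samples but replicates 1 and 4 lay within the control range, and the log2 fold change was -0.29 (SE 0.21, 95% interval -0.74 to 0.16, adjusted p = 0.431 in edgeR). Without control replicate 1 the log2 fold changes were -0.30 for *Angpt2* (adjusted p = 0.114) and -0.076 for *Angpt1* (adjusted p = 0.798). The antisense gene *Gm17473* shares 737 exon bases with *Angpt1*, at a mean of 1 count per sample. *Angpt2* lies within a range that also holds *Mcph1* on the opposite strand, with 0 shared exon bases and a mean of 261.5 counts per sample. The strand setting of the counting is not given, and whether reads of *Mcph1* entered the *Angpt2* counts was not tested.

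**Figure D2:**
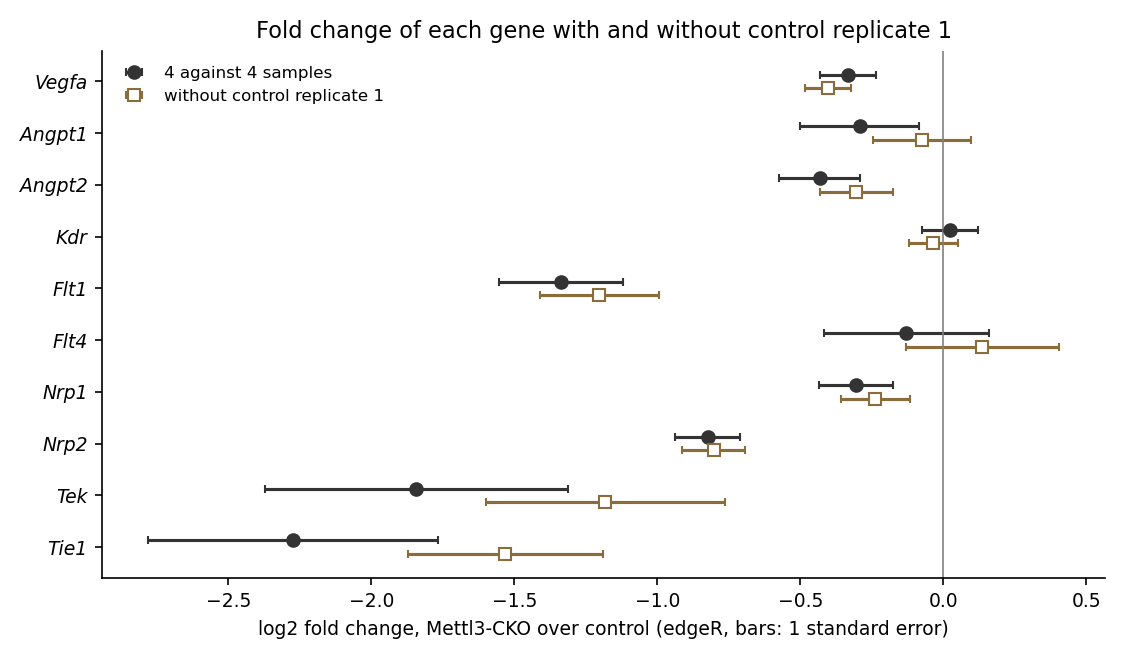
Log2 fold change of each gene, *Mettl3*-CKO over control, from edgeR with all 8 samples (filled circles) and without control replicate 1 (open squares), with bars of 1 standard error. *Tek* and *Tie1* move towards 0 without that control, to -1.18 and -1.53, and *Kdr* stays near 0 in both.

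Ligands were next compared with their receptors within each sample, as the difference of their log2 CPM (with a prior count of 2), by two-sided exact permutation tests over the samples. The log2 ratio of *Vegfa* to *Kdr* averaged -1.35 ± 0.19 in controls and -1.71 ± 0.15 in *Mettl3*-CKO retinas (SD, n = 4 each), a difference of -0.36 (exact p = 0.0571, 0.0762 after adjustment over the 4 ratios tested). That of *Vegfa* to *Flt1* averaged 5.14 ± 0.47 and 6.11 ± 0.36, a difference of 0.96 in the other direction (exact p = 0.0571, adjusted 0.0762). The ratio of *Angpt2* to *Tek* averaged 2.52 ± 0.67 and 3.78 ± 0.74, a difference of 1.25 (exact p = 0.0571, adjusted 0.0762), and that of *Angpt1* to *Tek* averaged 2.47 ± 0.67 and 3.88 ± 0.96, a difference of 1.41 (exact p = 0.0857, adjusted 0.0857). Each ratio overlapped between groups, and none passed 0.05 where the smallest p available was 0.0286. The *Vegfa* to *Kdr* ratio was -1.39, -1.22, -1.60 and -1.20 in controls and -1.68, -1.52, -1.86 and -1.78 in *Mettl3*-CKO retinas, so that control replicate 3 alone lay among the latter.

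**Figure D3:**
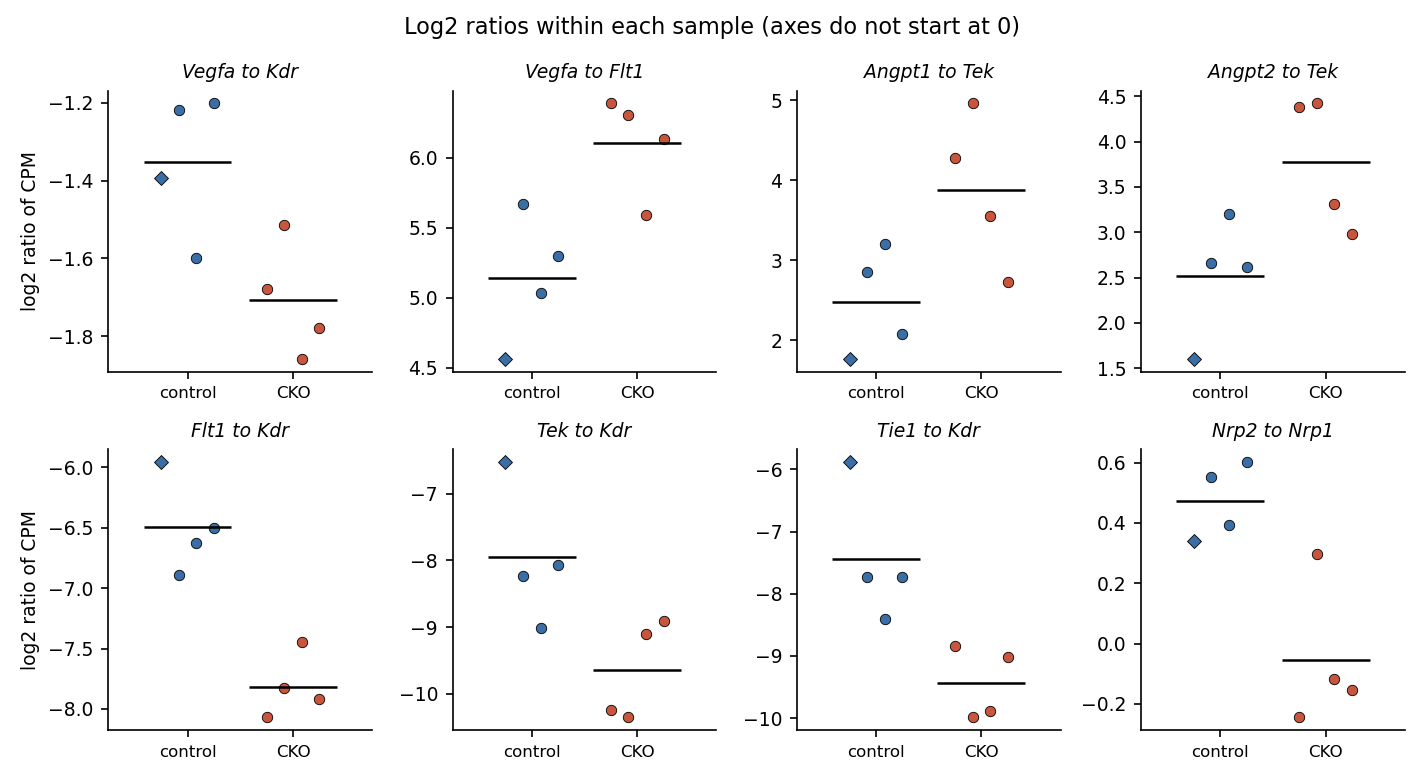
Log2 ratio of CPM of 2 genes in each sample, for the 4 ligand to receptor pairs (top) and for 4 pairs of receptors (bottom), with controls in blue (diamond, control replicate 1), *Mettl3*-CKO samples in red and group means as lines. The axes do not start at 0, and *Flt1* to *Kdr*, *Tie1* to *Kdr* and *Nrp2* to *Nrp1* are the pairs whose groups do not overlap.

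The receptors were also set against each other within each sample. These pairs were chosen after the fold changes were known, so the differences are given as a description, without a test. The log2 ratio of *Flt1* to *Kdr* was between -6.89 and -5.95 in controls and between -8.07 and -7.45 in *Mettl3*-CKO retinas, a difference of -1.32. That of *Tie1* to *Kdr* was between -8.40 and -5.88 in controls and between -9.99 and -8.85 in *Mettl3*-CKO retinas, a difference of -2.001. For *Tek* to *Kdr* the groups overlapped, with a difference of -1.70. These differences were -1.14, -1.48 and -1.22 without control replicate 1.

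*Kdr* also stood apart from the endothelial marker genes in level. The highest of the 20 endothelial markers by mean control FPKM was *Cldn5*, a tight junction protein of endothelium, at 7.12 FPKM, against 60.6 FPKM for *Kdr*. *Pecam1*, an adhesion molecule found on all endothelium, was at 0.976 FPKM. Of the 20 markers, 15 passed the filter, 10 were called lower in *Mettl3*-CKO retinas and 0 higher, and the median log2 fold change of the 15 was -1.07. *Aplnr*, the apelin receptor, fell by 3.03 on the log2 scale (adjusted p = 0.00398 in edgeR), *Cd93* by 2.11 (adjusted p = 0.00579) and *Pecam1* by 1.31 (adjusted p = 0.0377). These genes fell by 2.31, 1.48 and 0.70 without control replicate 1. All 4 *Mettl3*-CKO summed levels of the 20 markers were below all 4 controls, and no marker was at 0 in all samples. Without control replicate 1, 10 markers were called lower, against 7.07% of all genes then tested, and the median was -0.70. The count was 3 without *Mettl3*-CKO replicate 1 and 4 without *Mettl3*-CKO replicate 2 or 3, where 185, 409 and 334 of all genes were called lower.

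Relative to the endothelial markers of the same sample, *Kdr*, *Vegfa*, *Nrp1*, *Flt4* and *Angpt2* stood higher in *Mettl3*-CKO retinas, as most genes did. As a measure of the markers, the mean log2 CPM of the 15 tested ones was taken, which was 1.91 ± 0.66 in controls and 0.71 ± 0.24 in *Mettl3*-CKO retinas (SD, n = 4 each) and did not overlap. Because this value fell, a gene with no change of its own stands 1.19 higher on the log2 scale in *Mettl3*-CKO retinas after subtraction. Of all genes tested, 78.8% then had every *Mettl3*-CKO sample above every control and 0.0167% had every one below. The 5 genes named were among the former, with differences of 1.22 for *Kdr*, 1.12 for *Flt4*, 0.89 for *Nrp1*, 0.87 for *Vegfa* and 0.78 for *Angpt2*. For the other 5, *Flt1* (-0.099), *Tek* (-0.48), *Tie1* (-0.78), *Nrp2* (0.36) and *Angpt1* (0.93), the groups overlapped. Subtracted values of *Kdr* were 6.04, 7.41, 7.89 and 7.40 in controls and 8.48, 8.56, 8.34 and 8.24 in *Mettl3*-CKO retinas. These differences are a description and were not tested.

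**Figure D4:**
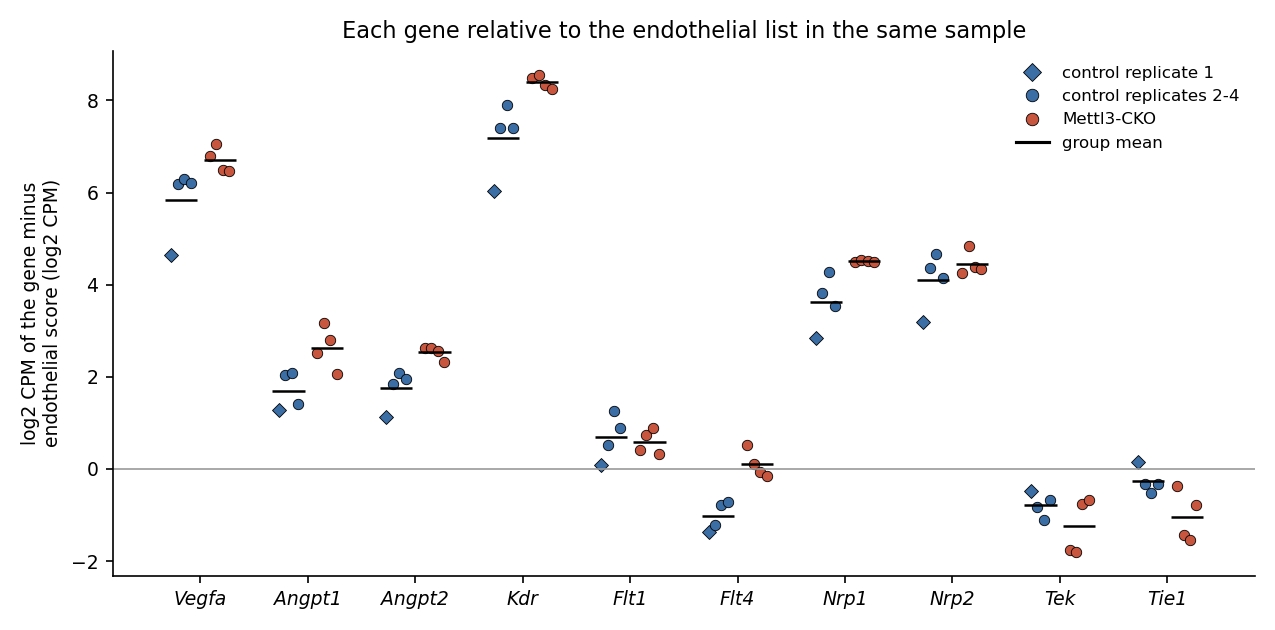
Log2 CPM of each gene minus the mean log2 CPM of 15 endothelial markers in the same sample, for controls (blue, with replicate 1 as a diamond) and *Mettl3*-CKO samples (red), with group means as lines. An unchanged gene would stand 1.19 higher in *Mettl3*-CKO retinas, since the markers fell, and while *Vegfa*, *Kdr*, *Flt4*, *Nrp1* and *Angpt2* are higher in every *Mettl3*-CKO sample than in every control, *Flt1*, *Nrp2*, *Tek*, *Tie1* and *Angpt1* overlap.

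Other ligands of the pathways gave no call. *Vegfb*, a ligand of VEGFR1, had a log2 fold change of 0.086 (SE 0.10, adjusted p = 0.672 in edgeR). Of the 5 further ligands (*Vegfb*, *Vegfc*, *Vegfd*, *Pgf* and *Angpt4*), 4 passed the filter and 0 were called in either direction with edgeR, DESeq2 or limma voom, and 0 had an unadjusted p-value under 0.05. Their median log2 fold change was -0.087.

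Of 22 co-receptors, semaphorins and transducers of VEGF and TIE2 signalling, all passed the filter, 4 were called lower and 3 higher, and the median log2 fold change was -0.18. *Ptprb*, the phosphatase that restrains TIE2 and VEGFR2 in endothelium, was lower with a log2 fold change of -0.71 (SE 0.20, adjusted p = 0.0428 in edgeR). *Cdh5*, the adherens junction cadherin of endothelium, fell by 1.86 (SE 0.43, adjusted p = 0.0182), or by 1.19 without control replicate 1, and both genes are also among the 20 endothelial markers. *Dok2*, an adaptor that binds TIE2 and is also a gene of blood cells, rose by 1.24 (SE 0.19, adjusted p = 0.00217). The other calls, named after their values were seen, were lower *Plxnd1*, the receptor of semaphorin 3E (-0.49), and *Pik3r1*, a regulatory subunit of PI3K (-0.43), and higher *Sema3e* (0.57) and *Nck1*, an adaptor (0.46). The counts depended on single controls, with 8 lower and 4 higher without control replicate 1 and 1 lower and 2 higher without control replicate 4. Over all genes, the former fit called 1289 lower and 1882 higher, and the latter 464 and 839.

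Genes linked to VEGF signalling in sprouting endothelium were mixed as well. Of 10, 9 passed the filter, 3 were lower and 1 was higher, with a median of -0.37. *Esm1*, the marker of endothelial tip cells that heads the list, did not pass the filter, at a mean of 0.097 CPM in controls and 0.200 CPM in *Mettl3*-CKO retinas. *Unc5b*, a netrin receptor of tip cells, had a log2 fold change of -0.59 (SE 0.16, adjusted p = 0.0358 in edgeR), and *Nr4a1*, an immediate early gene, of -0.55 (SE 0.12, adjusted p = 0.0116). The remaining calls, named after their values were seen, were *Vash1*, an inhibitor of angiogenesis (-0.35), and *Cxcr4*, a chemokine receptor that neurons and leukocytes also express (0.42). Without control replicate 4 the counts were 1 lower and 0 higher.

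*Vegfa* is a target of the hypoxia-inducible factors, whose genes were read beside it. *Hif1a*, the hypoxia-regulated subunit HIF-1α, had a log2 fold change of -0.33 (SE 0.098, adjusted p = 0.0480 in edgeR), with overlap between groups. *Epas1*, encoding HIF-2α, which endothelium and astrocytes express, had one of -0.59 (SE 0.14, adjusted p = 0.0182). Of the 7 genes of this regulatory group, these 2 were called lower and 0 higher, and the median was -0.073. Of 15 other targets of hypoxia-inducible factors, 2 were lower and 1 was higher, with a median of -0.18. *Slc2a1*, the glucose transporter GLUT1, rose by 0.38 (SE 0.093, adjusted p = 0.0217). *Ndrg1*, a stress-responsive gene, fell by 0.73 (SE 0.12, adjusted p = 0.00288), and *Aldoa*, a glycolytic enzyme whose symbol is on 2 rows of which the one with more counts was used, by 0.45 (SE 0.13, adjusted p = 0.0446). Without control replicate 4, 1 regulator and 1 target were lower and 0 of either were higher.

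Markers of other cells that make or receive these signals moved in several directions. Of 8 astrocyte markers 7 were tested and 2 were lower, *Gfap* (-1.31, adjusted p = 0.0230 in edgeR), the intermediate filament of astrocytes, and *Pdgfra* (-0.87, adjusted p = 0.0173), the receptor on astrocytes of the vessel template. Without control replicate 1, *Gfap* fell by 0.83 and *Pdgfra* by 0.60. *Pax2*, named after its values were seen, had a log2 fold change of -0.14 (adjusted p = 0.766 in edgeR). The summed level of the astrocyte markers was 321.0 to 538.9 CPM in controls, highest in replicate 1, and 253.2 to 322.2 CPM in *Mettl3*-CKO retinas. *Slc1a3*, which was not called, held the largest part of this sum, with means of 244 CPM in controls and 214 CPM in *Mettl3*-CKO retinas. Of 10 mural cell markers 8 were tested, with 2 lower and 2 higher. Their summed level was 91.88 CPM in control replicate 1, 43.5 to 53.67 CPM in the other controls and 54.16 to 72.56 CPM in *Mettl3*-CKO retinas. The pericyte gene *Rgs5* fell by 1.99 on the log2 scale (adjusted p = 0.00931), or by 1.34 without control replicate 1. *Abcc9*, also of this list, fell by 1.68 (adjusted p = 0.0238), or by 1.17 without control replicate 1. *Notch3*, a receptor of mural cells that neural progenitors and glia also use, was named after its values were seen and rose by 1.46 (adjusted p = 0.000659). Its means were 14.1 CPM in controls and 38.8 CPM in *Mettl3*-CKO retinas, where it held the largest part of the summed level. *Cspg4*, of this list too and named after its values were seen, rose from a mean of 2.53 to 5.86 CPM (adjusted p = 0.00613). Without control replicate 1 its log2 fold change was 1.36. *Pdgfrb*, first of the list, had a log2 fold change of -0.70 (adjusted p = 0.0553). Of 5 erythrocyte genes 3 were tested and 2 were lower, *Hba-a1* (-2.65, adjusted p = 0.000451) and *Hbb-bs* (-2.21, adjusted p = 0.0132), near-identical copies of which can share reads, with summed levels of 13.87 to 26.28 CPM in controls and 4.28 to 7.17 CPM in *Mettl3*-CKO retinas. The part of these cell types in the levels of the 10 genes was not tested.

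Of 11 myeloid markers, which include the microglia that associate with growing vessels, 9 were tested and 0 were called with edgeR or DESeq2, with 1 higher at an unadjusted p-value under 0.05. The median log2 fold change was 0.29, and *Cx3cr1*, a chemokine receptor of microglia, had one of 0.63 (SE 0.26, adjusted p = 0.150 in edgeR). Without control replicate 1, which had the highest summed level of these markers, 5 were called higher, against 10.3% of all genes then tested. With all samples, limma voom with sample weights called 7 higher, against 11.9% of all genes tested. Of 10 genes of the pigment epithelium and melanocytes 8 were tested, with 4 lower, among them *Ttr* (-1.19, adjusted p = 0.00134) and *Tyr* (-0.77, adjusted p = 0.0307), and 1 higher, and their summed level was 99.35 to 137.8 CPM in controls and 73.5 to 100.1 CPM in *Mettl3*-CKO retinas. *Rpe65*, first of that list, did not pass the filter. Of 18 lens genes 9 were tested and 5 were called lower, of which 0 were called without control replicate 4 or with limma voom. *Cryaa*, *Cryba1* and *Crygd* had log2 fold changes of -6.86, -7.20 and -8.11, with control replicate 4 above all other samples in the summed level of the list. Library sizes without lens, erythrocyte and mitochondrial genes ended the call of *Vegfa*, as given above, and the part of pigment epithelium in the results was not tested.

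The genes whose level followed a member most closely between samples of a group were sought by Pearson's r of log2 CPM centred within each group, over the 8 samples and 14313 genes with a mean log2 CPM of at least 1. For *Vegfa* they were *Erich1* (r = 0.987), *Rpgr*, *Gm35060*, *9130221H12Rik* and *Gm20219* (r = 0.968). For *Kdr* they were *Clasp1* (r = 0.969), *2810405F17Rik*, *Adcy8*, *Zfp879* and *Smad5* (r = 0.960). For *Tek* they were *Tmem86a* (r = 0.988), *Ufl1*, *Ppp3cc*, *Stx3* and *Gstk1* (r = 0.981), and *Tek* owed much of its spread to control replicate 1. None of the 15 is among the endothelial markers. Markers at low levels were left out of the genes searched, so their absence carries no information. With 8 samples and this many genes such values are a description only, and the samples share library depth and cell make-up.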

How the data were processed

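RNA-seq was performed by the authors on 8 retinal samples, 1 library each. According to the methods and labels, they extracted total RNA with TRIzol, made libraries with the NEBNext Ultra kit, filtered paired-end reads, mapped them with HISAT2 to GRCm38 (mm10) and used featureCounts to count reads per gene. The authors deposited these counts without normalization, as whole numbers, with a length and position for each gene. The annotation release and the strand setting of the counting are not given in the sources used here. The study's methods name DESeq2 for its own tests.

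From the deposited counts, genes were kept by filterByExpr, normalised by TMM and compared by the quasi-likelihood test of edgeR 4.0.16 (R 4.3.3), with no covariate, Benjamini-Hochberg adjustment over all 17998 genes and a threshold of 0.05. The standard error is the log2 fold change divided by the square root of F. The biological coefficient of variation was 15.0% and the TMM factors lay between 0.970 and 1.01. FPKM was calculated from counts, gene lengths and library totals. Log2 CPM used a prior count of 2, and ratios of ligands to receptors were tested by exact permutation of the samples, two-sided. The test was checked on simulated data with known changes. Alternatives were DESeq2 1.42.0, limma 3.58.1 (voom with sample quality weights), other scalings, no filter on low counts, a prior count of 0.5, a threshold of 0.01, the replicate number as a block, and samples left out.

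Samples were grouped and matched to columns by their labels, with 0 sample columns unused. No pair held identical counts or differed by as little as sampling noise (lowest chi-square per gene 5.01), so each sample was counted separately. The 10 genes and the other gene lists were chosen with earlier results of these data known. The text names all 10, *Mettl3*, the first gene of each other list and its 2 largest changes among called genes, and the 5 genes most like *Vegfa*, *Kdr* and *Tek*, and says where another gene was named after its values were seen. Single-cell and m6A data of the study were not analysed here.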

Additional observations from a re-analysis of the deposited data

How the results depend on the processing

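*Flt1* and *Nrp2* were called lower under all 8 alternatives of test, scaling, filter, block and controls 1 and 4 left out together, and in all 8 fits that left out 1 sample, with log2 fold changes between -1.47 and -1.13 and between -0.89 and -0.72. *Tie1* was called in all 8 alternatives and in 7 of the 8 fits, *Tek* in 5 and 2, and *Vegfa* in 6 and 1. *Angpt2* was called with DESeq2 only. *Kdr*, *Flt4*, *Nrp1* and *Angpt1* were called in none, over a range of -0.049 to 0.093 for *Kdr*.

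The number of the 10 genes called lower was 2 at an adjusted p under 0.01 and 2 to 4 when 1 sample was left out. Of the endothelial markers, 2 were called lower at that threshold, 5 without control replicates 1 and 4, and 3 to 13 when 1 sample was left out. Over all genes, limma voom called 1568 lower and 2142 higher, the threshold of 0.01 left 147 and 439, and leaving out 1 sample gave 185 to 1289 lower and 509 to 1882 higher. The sign of *Kdr* turned to -0.012 with limma voom, -0.049 without control replicates 1 and 4, and -0.028 without *Mettl3*-CKO replicate 4 and -0.035 without control replicate 1. That of *Flt4* turned to 0.17 with limma voom, 0.33 without control replicates 1 and 4 and 0.14 without control replicate 1, and ran from -0.27 (without control replicate 2) to 0.14 when 1 sample was left out. The cause was not tested. The log2 difference of the *Angpt1* to *Tek* ratio lay between 1.05 and 1.79 when 1 sample was left out, the latter without *Mettl3*-CKO replicate 4 with an exact permutation p of 0.0286. The other ligand to receptor ratios stayed above 0.05 throughout, in tests that could not go below 0.0286, or 0.0667 without control replicates 1 and 4.

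The deviations of same-numbered samples from their group means correlated at -0.11, 0.22, -0.11 and 0.25. Those of differently numbered samples ran from -0.23 to 0.26. With so few samples these values cannot decide whether replicate numbers pair the samples. With the replicate number as a block, 4 of the 10 genes and 7 endothelial markers were called lower, 661 genes were lower and 1198 higher, and *Tek* was not called (adjusted p = 0.0822 in edgeR). The ratios could not pass 0.05 with the block, where the smallest exact p is 0.125. Depth limits *Tek* and *Tie1* most, which had 5 to 24 and 7 to 22 counts in *Mettl3*-CKO samples.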
